A study of Mus musculus with 3 samples.

Results

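The renin-angiotensin system was examined in cells sorted from fetal mouse kidneys for the Meis1-EGFP reporter. The system was taken as 9 genes (Agt, Ren1, Atp6ap2, Ace, Enpep, Agtr1a, Agtr1b, Agtr2 and Mas1), and every probe set that the platform annotation assigns to a single one of these symbols was used. This gave 11 of the 45101 probe sets and 8 of the 18193 genes with a value. Ren1, which encodes renin, has no probe set of its own in that annotation and was not analysed here.

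The series holds 1 group of 3 Affymetrix arrays. Kidneys came from CD-1 fetuses at E15.5 (Theiler stage 23) that carry Tg(Meis1-EGFP)FO156Gsat, in which control elements of Meis1 drive a green fluorescent protein. About 20 kidneys were pooled for each array and dissociated in trypsin, and the fluorescent cells were collected by flow cytometric sorting. The labels call the cells nephrogenic interstitium, while the series title speaks of peripheral blastema. The cells are defined by the reporter alone, and neither the cells without fluorescence nor unsorted kidney was measured in this series.

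Angiotensinogen, the product of Agt, is cut by renin to angiotensin I, which angiotensin-converting enzyme (Ace) trims to the active peptide angiotensin II. Angiotensin II acts through type 1 receptors (Agtr1a and Agtr1b in the mouse) and a type 2 receptor (Agtr2). Enpep removes the first amino acid of angiotensin II and so turns it into angiotensin III, and Mas1 is a receptor for a shorter angiotensin peptide. In the fetal kidney the system is known for its part in the growth of the papilla and of the renal vessels, and renin cells arise from the Foxd1-positive stroma.

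The 3 arrays had median signals of 143 to 187. Signals are in arbitrary units, scaled by the authors to 1 mean for all arrays. A signal was set against the background level of its own array, the 95th percentile of 71 chemosensory receptor genes, which act mainly in sensory neurons. This level was a signal of 136, 186 and 169 in replicates 1, 2 and 3. The distance from background is the log2 signal minus the log2 level, and a gene was called above background when limma's one-sided test, adjusted over all 18193 genes, gave an adjusted p under 0.05. The signal of the 3' control probe set of Gapdh exceeded that of its 5' one by 5.00 to 5.39 log2 units on these arrays, so a probe set far from the 3' end of its transcript may read low. All 9 markers of the nephrogenic interstitium were above background, beside 57.3% of all genes. Among them were Foxd1 and Meis1, the gene of the sorted reporter. None of 7 proximal tubule markers was above background. Of other markers, 5 of 7 for cap mesenchyme, 6 of 8 for endothelium and 3 of 7 for ureteric bud were above background.

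Of the 8 genes of the system with a value, 6 were above background (75%), beside 57.3% of all genes. They were Agtr2, Atp6ap2, Enpep, Agtr1b, Agtr1a and Ace. Agt and Mas1 were not above background. The median distance was 1.87 log2 units for the 8 genes and 1.51 for all genes. By probe set, 8 of 11 were above background, beside 48.6% of all probe sets with 1 symbol. The same 6 genes exceeded the level on each of the 3 arrays, as did 59.2% of all genes.

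**Figure D1:**
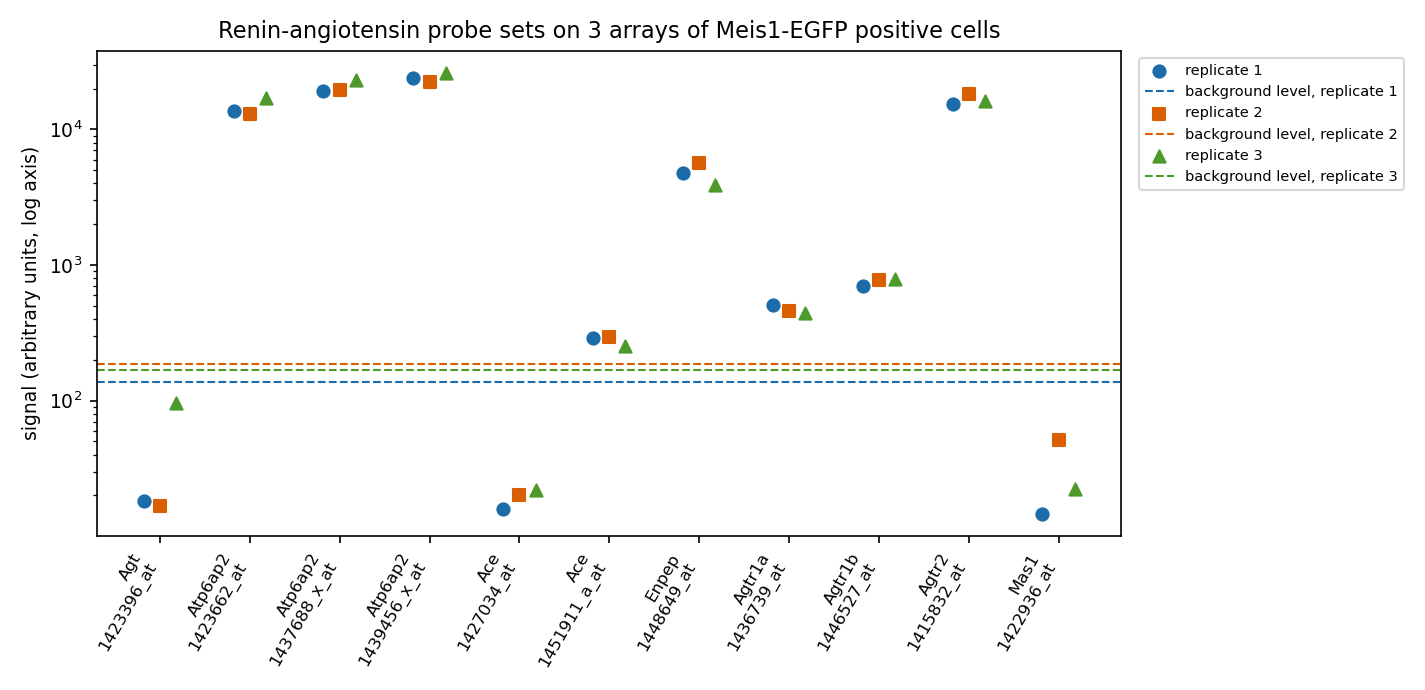
Signal (arbitrary units, log axis) of the 11 probe sets of the renin-angiotensin system in replicates 1, 2 and 3, with the background level of each array as a dashed line of the same colour. The 3 Atp6ap2 probe sets and Agtr2 lie near the top with signals from 12897 to 26182, while Agt, Mas1 and 1 of the 2 Ace probe sets lie below the lines on all 3 arrays.

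The 150 bases before the annotated start of 5 of these genes are shown, to set the letters around the start of genes that were above background (Agtr2, Agtr1b, Enpep and Atp6ap2) beside those of one that was not (Agt). Sequences are from RefSeq, build GRCm38.p6, 5′ to 3′ on the strand of the gene. Capitals mark matches on either strand to short letter runs known as factor sites. These were TATAAA for the TATA box and its variant spelling TATATA, then CCAAT for the box of that name. The others were GGGCGG for the box of Sp factors, and for Meis proteins the core run TGACAG.
Agtr2 (chrX:21484474-21484623, plus strand): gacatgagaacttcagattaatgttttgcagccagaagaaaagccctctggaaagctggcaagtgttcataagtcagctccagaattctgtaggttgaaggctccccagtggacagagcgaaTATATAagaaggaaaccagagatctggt
Agtr1b (chr3:20367178-20367327, minus strand): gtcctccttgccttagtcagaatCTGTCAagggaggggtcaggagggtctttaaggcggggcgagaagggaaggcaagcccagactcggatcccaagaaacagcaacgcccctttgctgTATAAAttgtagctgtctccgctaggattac
Enpep (chr3:129332750-129332899, minus strand): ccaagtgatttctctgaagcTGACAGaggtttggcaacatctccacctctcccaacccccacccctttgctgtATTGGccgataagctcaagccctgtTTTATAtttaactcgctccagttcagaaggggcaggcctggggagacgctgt
Atp6ap2 (chrX:12587609-12587758, plus strand): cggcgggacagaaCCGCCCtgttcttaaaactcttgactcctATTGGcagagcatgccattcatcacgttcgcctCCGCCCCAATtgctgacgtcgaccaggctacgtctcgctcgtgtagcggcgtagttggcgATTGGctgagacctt
Agt (chr8:124569707-124569856, minus strand): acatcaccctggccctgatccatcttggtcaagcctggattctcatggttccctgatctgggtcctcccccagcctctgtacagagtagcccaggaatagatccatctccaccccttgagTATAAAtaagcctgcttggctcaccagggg

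The table held 9 start sites for 8 of the 9 genes, 2 of them for Ace, and Agtr1a had no entry. The 250 bases before each start were searched. A TATAAA, the core of the TATA box, lay on either strand before 5 of the 9 starts and before 12.4% of all 32851 starts in the table. The matches of Ace and Enpep were on the strand opposite the gene, so they read TTTATA. On the strand of the gene TATAAA stood only before Agt, Agtr1b and Ren1 among the members, and before 7.59% of all starts. Ren1 had no value here. The first base of TATAAA was 30 bases before the start in Agt and 31 in Agtr1b. In this pair the letters stood in nearly the same place in a gene above background and in one that was not. Mas1, also not above background, held neither TATAAA nor TATATA. Agtr2 held no TATAAA but a TATATA at 28 bases, found before 5.25% of all starts. Atp6ap2 held neither, and had 3 matches to CCAAT, which stood before 33.8% of all starts. It also had 2 matches to GGGCGG, which stood before 32.7%, and 1 of each kind share a base. TGACAG, the core bound by Meis proteins, lay before Enpep and Agtr1b and before 15.9% of all starts. A match is a run of letters and not evidence of binding.

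The precursor was not above background. Agt had signals of 18.2, 16.6 and 96.9 in replicates 1, 2 and 3, below the level of each array. All 3 arrays lay under their levels, where signals have no order. The distance was -2.40 ± 0.52 log2 units (SE, n = 3). Agt rests on 1 probe set. None of the 5 measured hepatocyte markers was above background (Alb at -0.53 ± 0.29 and Apoa1 at -4.58 ± 0.47), and their summed signal was 278, 289 and 214 in replicates 1, 2 and 3. With no marker above background, these sums give no order among the arrays. The part of hepatocytes in the Agt signal was not tested.

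Atp6ap2, the (pro)renin receptor and an accessory subunit of the vacuolar proton pump, was above background by all 3 of its probe sets. The brightest, 1439456_x_at, had signals of 23914, 22365 and 26182 in replicates 1, 2 and 3. Probe set 1437688_x_at had 19358, 19446 and 23143, and 1423662_at had 13732, 12897 and 16964. Each probe set was highest in replicate 3. The distance of the brightest was 7.21 ± 0.21 log2 units (SE, n = 3; 148-fold; limma adjusted p = 1.04e-06). The others lay at 6.98 ± 0.22 and 6.47 ± 0.23 in the fit of all probe sets. The suffix _x_at marks probe sets that may cross-hybridise. With these left out the gene rests on 1423662_at alone and lay at 6.47. After each array was centred on its median, the SD of Atp6ap2 over the arrays was 0.12 log2 units, as was the median SD of the 200 genes of closest signal (0.12).

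Ace, which makes angiotensin II, lay close to the background level and its 2 probe sets differed. Probe set 1451911_a_at had signals of 288, 295 and 252 in replicates 1, 2 and 3, above the level of each array. Probe set 1427034_at had signals of 15.9, 20.2 and 22.1, below the level of each array. The gene, read by the brighter probe set, exceeded background by 0.77 ± 0.21 log2 units (1.71-fold; SE, n = 3), with a limma adjusted p = 0.0110. The call was kept in 10 of 14 alternatives. It was lost with the level at the 99th percentile (0.30, limma adjusted p = 0.299), with a level from tissue restricted genes (0.10, adjusted p = 0.584) and without replicate 3 (0.87, adjusted p = 0.0559). The mean of the 2 probe sets lay below background (-0.95). Over the alternatives the distance ran from -0.95 to 1.13. Such a split was common, since 4519 of the 6820 genes above background with more than 1 probe set (66.3%) also had one that was not called.

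Ace is a known product of endothelial cells. Of 8 endothelial markers 6 were above background (75%, beside 57.3% of all genes). Tek lay at 2.85 ± 0.20 log2 units, Cd34 at 1.46 ± 0.29, Cdh5 at 1.30 ± 0.22 and Kdr at 1.06 ± 0.20. The junction protein gene Pecam1 (-1.65 ± 0.72) and Flt1 (-0.68 ± 0.24) were not above background. The summed endothelial signal was 3323, 3294 and 3902 in replicates 1, 2 and 3. The part of these cells in the Ace signal was not tested. In a sorted pool, fewer cells of a type and less RNA per cell cannot be told apart. Cdh5 lay at -0.044 when its probe sets were averaged.

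Enpep, the aminopeptidase that makes angiotensin III, was far above background. Its signals were 4740, 5619 and 3878 in replicates 1, 2 and 3, with distances of 5.12, 4.92 and 4.52 log2 units from the level of each array. Replicate 2 had the highest signal and replicate 3 the lowest, 1.44-fold apart after centring. The distance was 4.85 ± 0.22 log2 units (SE, n = 3; 28.9-fold; limma adjusted p = 2.55e-06). The SD over the arrays was 0.26 log2 units, against a median of 0.17 for the 200 genes of closest signal, of which 85.5% varied less.

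Enpep is also known from podocytes and from the brush border of the proximal tubule. Of 4 measured podocyte markers 2 were above background, Synpo at 2.13 ± 0.20 log2 units and Podxl at 1.87 ± 0.22, and the slit diaphragm gene Nphs1 (-1.67 ± 0.28) and Ptpro (-0.57 ± 0.30) were not. Their summed signal was 1490, 1413 and 1521 in replicates 1, 2 and 3. Of the 7 proximal tubule markers, Slc34a1 lay at -0.61 ± 0.28 and Lrp2 at -0.65 ± 0.22, and the sum over all 7 was 536, 616 and 642. None of the 7 was above background, so these sums give no order among the arrays. The part of either cell type in the Enpep signal was not tested. Averaging its probe sets ended the call of Synpo (0.52, limma adjusted p = 0.0959).

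Receptors for angiotensin II were above background for both types. Agtr2, the type 2 receptor, had signals of 15492, 18179 and 16097 in replicates 1, 2 and 3. The arrays lay within 1.19-fold of each other after centring. The distance was 6.67 ± 0.20 log2 units (SE, n = 3; 102-fold; limma adjusted p = 1.04e-06), and it ran from 5.99 to 7.02 over the 14 alternatives. The SD of 0.13 log2 units was near the median of 0.12 for genes of like signal.

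Agtr1a, the main type 1 receptor of the mouse kidney, had signals of 507, 455 and 441 in replicates 1, 2 and 3. It exceeded background by 1.52 ± 0.22 log2 units (2.87-fold; SE, n = 3), with a limma adjusted p = 0.000606. Its distance on single arrays was 1.89, 1.29 and 1.38, and replicate 1 had both the highest signal and the lowest background level. Agtr1b, the second type 1 receptor, which in mice acts mainly outside the kidney, had signals of 699, 773 and 790. It exceeded background by 2.21 ± 0.20 log2 units (4.63-fold; SE, n = 3), with a limma adjusted p = 5.51e-05. Neither gene lost its call in any of the 14 alternatives, in which the lowest distances were 0.85 for Agtr1a and 1.54 for Agtr1b. Each of the 3 receptor genes rests on 1 probe set. The 2 type 1 receptors are close paralogues, and cross-hybridisation between their probe sets was not tested. Probe sets differ in affinity, so the values give no order among the receptors.

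Mas1 was not above background. Its signals were 14.6, 51.4 and 22.4 in replicates 1, 2 and 3, each below the level of its array. As for Agt, these signals have no order. The distance was -2.66 ± 0.31 log2 units (SE, n = 3). A low signal leaves unsaid whether the transcript was made, because some probe sets do not report.

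**Figure D2:**
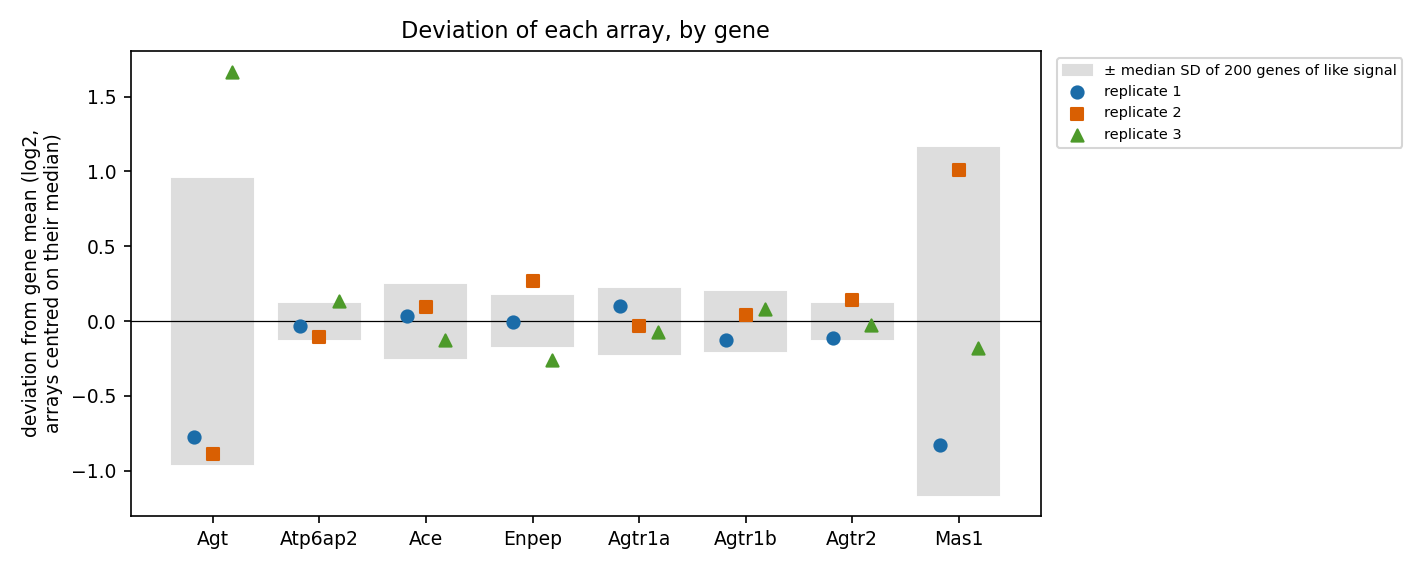
Deviation of each array from the mean of each gene (log2, arrays centred on their median), by replicate, for the 8 genes with a value. Grey bars span the median SD of the 200 genes of closest signal on either side of 0. Enpep lies outside its bar in replicates 2 and 3 and, by a little, Atp6ap2 in replicate 3 and Agtr2 in replicate 2. The type 1 receptors and Ace lie within theirs, and the wide spread of Agt and Mas1 is among signals below background.

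Other peptidases that act on angiotensin peptides were above background in 9 of 12 measured cases (75%, beside 57.3% of all genes), with a median distance of 2.02 log2 units. Mme, the endopeptidase neprilysin, had signals of 14364, 17423 and 13945 in replicates 1, 2 and 3 and exceeded background by 6.54 ± 0.20 log2 units (93.3-fold; SE, n = 3), with a limma adjusted p = 1.04e-06. Both of its probe sets were above background. Nln, the oligopeptidase neurolysin, lay at 4.18 ± 0.21, the carboxypeptidase Prcp at 2.33 ± 0.25 and the oligopeptidase Thop1 at 0.91 ± 0.24. Anpep, the aminopeptidase N that acts on angiotensin III, was not above background at -1.73 ± 0.39, nor was Ctsg, a protease of myeloid cells (-4.94 ± 0.25). Prcp rests on 1 of 4 probe sets, and the mean over probe sets ended its call (0.33) and that of Thop1 (0.32). Thop1 was likewise not called at the 99th percentile (0.43) or with a level from tissue restricted genes (0.23).

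Receptor partners and the signalling chain below the type 1 receptor were above background in 10 of 11 measured cases (90.9%, beside 57.3% of all genes). The median distance was 3.32 log2 units. With the mean over probe sets the count was 7 of 11. Gnaq, the G protein subunit that couples the type 1 receptor to phospholipase C, had signals of 7604, 8629 and 8086 in replicates 1, 2 and 3 and lay at 5.64 ± 0.20 log2 units (SE, n = 3), with 6 of 7 probe sets above background. The arrestins Arrb1 and Arrb2, which take up active receptors, lay at 2.55 ± 0.33 and 2.16 ± 0.23. Arrb1 had 1351, 629 and 1024 in replicates 1, 2 and 3, so its arrays spread more widely than those of the receptors. Agtrap, which binds the type 1 receptor and lowers its surface level, lay at 2.20 ± 0.21. Zbtb16, a zinc finger factor reported to bind the type 2 receptor, was not above background (-0.95 ± 0.28). Arrb2 lay at -0.32 once cross-hybridising probe sets (suffixes _s_at and _x_at) were left out, and averaging its probe sets ended the call of Agtrap (0.38, limma adjusted p = 0.123).

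Genes that control renin were above background in 9 of 16 measured cases (56.2%), near the share of all genes. The 4 given here belong to the cyclic AMP pathway, which raises renin. Gnas, which encodes the stimulatory G protein subunit, lay at 7.60 ± 0.20 log2 units (SE, n = 3), the transcription factor Creb1 at 6.25 ± 0.20, and the adenylyl cyclases Adcy6 and Adcy5 at 4.85 ± 0.22 and 1.47 ± 0.22. The connexins Gja5, which couples renin cells to their neighbours, and Gja4 were not above background (-4.49 ± 0.26 and -0.66 ± 0.19). Gja5 had signals of 9.0, 7.1 and 5.9 in replicates 1, 2 and 3. Gnas rests on 1 of 5 probe sets. It was not called when they were averaged (0.16) or when cross-hybridising ones were left out (0.90, limma adjusted p = 0.0533), and Adcy5 lay at -0.52 when averaged.

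Renin cells and pericytes are mural cells of the same stromal lineage, and 6 of 10 mural and smooth muscle markers were above background (60%, close to the 57.3% of all genes), Pdgfrb (5.98 ± 0.22 log2 units), Cspg4 (4.11 ± 0.20), Notch3 (4.30 ± 0.21) and Rgs5 (2.92 ± 0.27) among them. Tagln (-0.41 ± 0.27) and Myh11 (0.00 ± 0.20), of the contractile apparatus, were not called, while the smooth muscle actin gene Acta2, named outside the rule after its value was seen, lay at 5.36 ± 0.24 by 1 of 3 probe sets. The summed signal of the 10 markers was 27102, 26585 and 22512 in replicates 1, 2 and 3. Pdgfrb (mean signal 10373) and Acta2 (6704) were the brightest and weigh most in it. The part of mural cells in the Enpep values was not tested. Notch3 lay at -0.57 when cross-hybridising probe sets were left out and Rgs5 at -0.63 when its probe sets were averaged.

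The vacuolar proton pump, to which Atp6ap2 also belongs, was above background in 13 of 14 measured subunit genes (92.9%, beside 57.3% of all genes). The median distance was 5.41 log2 units. The second accessory subunit Atp6ap1 lay at 5.88 ± 0.24 log2 units (SE, n = 3), the membrane sector subunits Atp6v0d1, Atp6v0a2 and Atp6v0b at 5.35 ± 0.23, 3.50 ± 0.24 and 2.70 ± 0.25. Atp6v0a1, with signals of 202, 215 and 274 in replicates 1, 2 and 3, was just short of the threshold (0.49 ± 0.21, limma adjusted p = 0.0539) and passed it in 6 of 14 alternatives. The summed signal of these subunits was 95086, 93679 and 92103 in replicates 1, 2 and 3.

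The kinin system, whose peptides Ace also breaks down, had 3 of 7 measured genes above background (42.9%, beside 57.3% of all genes). Xpnpep1, a peptidase that cuts bradykinin, lay at 5.36 ± 0.21 log2 units (SE, n = 3), the kallikrein Klk1 at 3.23 ± 0.19 and the kininogen Kng1 at 2.58 ± 0.20. The bradykinin receptors Bdkrb1 (-1.43 ± 0.29) and Bdkrb2 (-1.80 ± 0.28) were not above background. Klk1 belongs to a family of close copies and rests on 1 of 4 probe sets. It lay at -5.50 when cross-hybridising probe sets were left out and at -2.64 when all were averaged.

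Genes of the mineralocorticoid arm, which angiotensin II drives through aldosterone, were above background in 3 of 8 cases (37.5%, beside 57.3% of all genes). The median distance was -0.83 log2 units. The kinase Sgk1 lay at 4.83 ± 0.27 log2 units (SE, n = 3), Hsd11b2, which inactivates glucocorticoids, at 1.10 ± 0.23 and the sodium channel subunit Scnn1a at 0.50 ± 0.21 (limma adjusted p = 0.0482). Cyp11b1 (-1.53 ± 0.37) and the aldosterone synthase gene Cyp11b2 (-0.74 ± 0.24) were not above background. The count was 1 of 8 at the 99th percentile and with a level from tissue restricted genes, where Hsd11b2 and Scnn1a lost their calls. Scnn1a also lost its call when any 1 array was left out (0.53, 0.58 and 0.37 without replicates 1, 2 and 3).

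**Figure D3:**
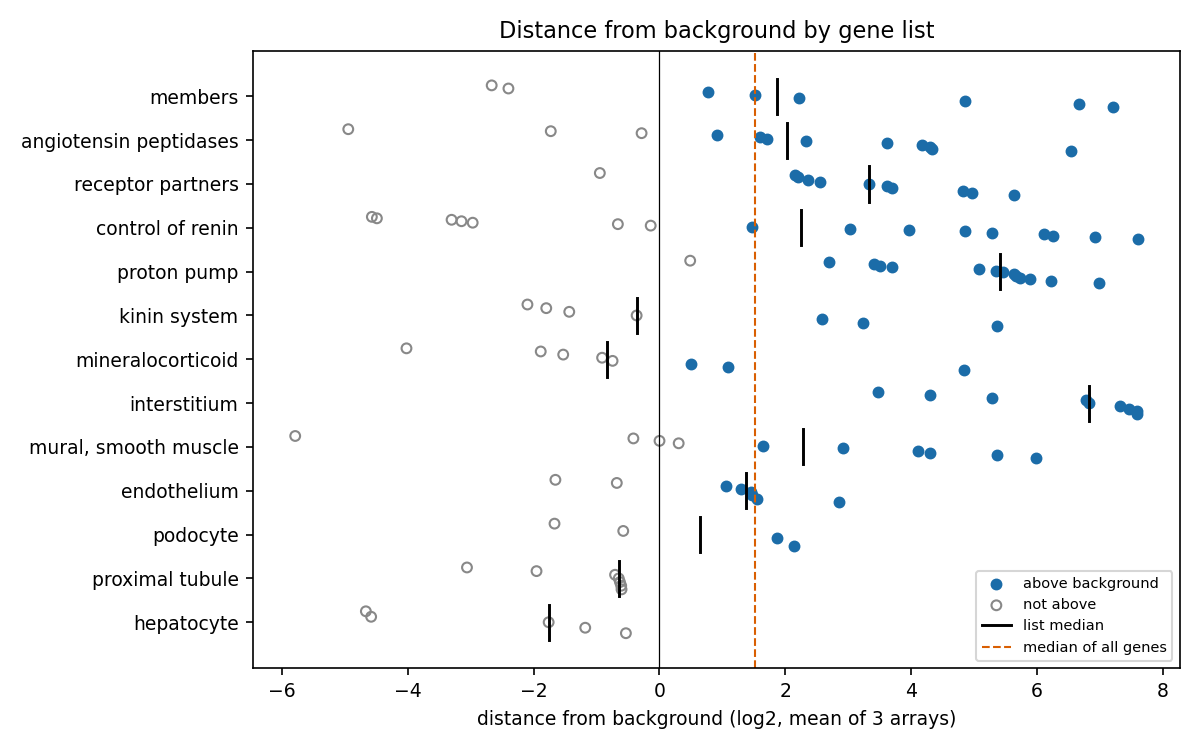
Distance from background (log2, mean of 3 arrays) of each measured gene of the renin-angiotensin system, of 6 related lists and of 6 lists of cell type markers. Filled points are genes above background, open points are not, black bars are list medians and the dashed line is the median of all genes (1.51). The members run from -2.66 (Mas1) to 7.21 (Atp6ap2).

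**Figure D4:**
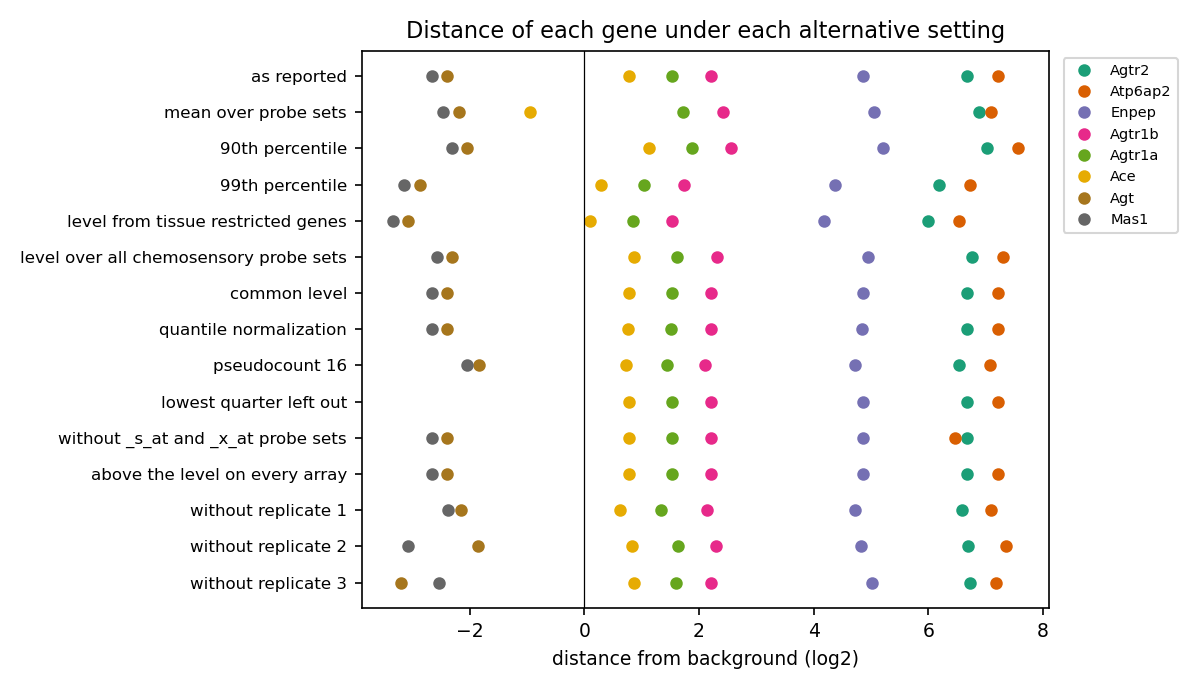
Distance from background (log2) of the 8 genes under the setting of the text and each of 14 alternatives. Ace crosses 0 with the mean over probe sets (-0.95), the other genes stay on their side of 0 in each setting shown, and Agt and Mas1 have no value when the dimmest 25% of genes are left out.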

How the data were processed

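The deposited file gives a linear intensity for each probe set and array, with 1 colour per array. Per the submitters' processing notes, GCOS made these values; its version, algorithm and scaling target were not found in the labels. All 3 arrays had a 2% trimmed mean of 1500.01 and had thus been scaled before deposit. The log2 was taken with no pseudocount. RNA had 2 rounds of amplification, per the labels.

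Probe sets with 1 symbol (34945) were kept; 932 with several, 9160 with none and 64 controls were not. The assembly of the RefSeq tables is GRCm38.p6. The brightest probe set by mean log2 signal stood for each gene. Distances were tested above 0 with limma 3.58.1 in R 4.3.3 (lmFit, then eBayes with prior df 3.69, one-sided, Benjamini-Hochberg), once over 18193 genes and once over 34945 probe sets. The lowest called distance of a gene was 0.48. The fit was tested on simulated data with 50 genes placed at each of 1, 2, 3 and 4 log2 units above the level. It called 15, 35, 39 and 49 of the 50, with 0 false calls. False calls just under the level were not tested separately. In that run genes above the level were missed, most of all at 1 log2 unit. On the arrays 10422 genes were called, far more than were placed above the level in the run. The share of genes missed on the arrays was not tested.

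The members and lists were chosen with earlier results of these data known. Named are all members and, in each list, up to 4 genes that passed and up to 2 that did not, in list order, of which some markers are given only as counts. Nothing in the labels ties the pools to separate litters, so p-values reflect only the spread between these samples, possibly technical. The spread of the background levels enters each SE. The number of arrays limits the precision.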

Additional observations from a re-analysis of the deposited data

How the results depend on the processing

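Over the 14 alternatives the count of members above background was 5 or 6, and Ace was the gene that changed. The number of genes called ran from 9162 (mean over probe sets) to 10976 (level at the 90th percentile), against 10422. The mineralocorticoid count became 1 of 8 at the 99th percentile and 1 of 8 with a level from tissue restricted genes, against 3. Other lists also moved with the mean over probe sets. Receptor partners fell to 7 of 11, against 10, and genes that control renin to 6 of 16, against 9. Angiotensin peptidases fell to 7 of 12, against 9, the kinin system to 2 of 7, against 3, and the proton pump to 12 of 14, against 13. Among named genes called above background, the mean over probe sets put the distance below 0 for Ace (-0.95), Adcy5 (-0.52), Calb1 (-1.44), Cdh5 (-0.044), Eya1 (-0.29), Klk1 (-2.64) and Rgs5 (-0.63). Among the same genes, leaving out cross-hybridising probe sets put it below 0 for Arrb2 (-0.32), Klk1 (-5.50) and Notch3 (-0.57), and with a level from tissue restricted genes for Scnn1a (-0.18). These settings use other probe sets or a higher level. No paired analysis was possible because the series holds 1 group. Background correction could not be varied, since only processed signals were used. Signals under the level have no order, so the spread of Agt and Mas1 says little.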

Other observations

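Markers of further cell types that the sort could hold were mixed, beside 57.3% of all genes above background. Cap mesenchyme markers were above background in 5 of 7 cases, with Gdnf at 7.36 ± 0.20 log2 units (SE, n = 3) and Six2 at 1.85 ± 0.20. Cited1 (-4.21 ± 0.19) and Osr1 (-3.14 ± 0.37) were not above background. Ureteric bud markers were above in 3 of 7 cases, with the adhesion protein gene Epcam at 4.12 ± 0.24 and Ret at -0.35 ± 0.25. Of 6 macrophage and leukocyte markers 1 was above background, the receptor gene Csf1r (1.14 ± 0.20), and Ptprc, the common leukocyte antigen, lay at -1.06 ± 0.32. Of 5 adrenal cortex markers 1 was above background, the corticotropin receptor Mc2r (3.25 ± 0.22), while the steroidogenic factor Nr5a1 lay at -0.53 ± 0.41. Of 47 measured tissue restricted genes 3 were above background (6.38%).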
